A study of Mus musculus with 38 samples.

Results

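Oligodendrocyte precursor genes were followed in the brains of Ube3a2X mice, which carry extra copies of Ube3a, and of WT littermates. The set held 7 of the 54165 genes of the count table, found by their symbols: Pdgfra, Cspg4, Vcan, Olig1, Olig2, Sox10, and Gpr17. They were chosen by their measured levels in earlier results of these data: how they compared between genotypes, read from library names that also give the sex, in the prefrontal cortex (PFC), whether the hypothalamus gave the same picture, and how the tissues differed, so those comparisons are given below as a description. RNA-seq was available for the PFC of 20 mice (5 WT females, 5 WT males, 5 Ube3a2X females, and 5 Ube3a2X males) and for the hypothalamus of 18 (4 WT females, 4 WT males, 5 Ube3a2X females, and 5 Ube3a2X males). All were adult animals of the FVB/NJ strain, and 13 of the 25 mice gave both tissues. The Ube3a2X mice were homozygous for a Ube3a transgene that is active irrespective of which parent transmitted it, the WT animals carried none, and the PFC was taken as small punches whereas the hypothalamus was lifted out whole. Each library stands for 1 animal.

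Oligodendrocyte precursors are the dividing glia from which myelinating oligodendrocytes arise, and they persist throughout the adult brain. They proliferate and survive on platelet-derived growth factor sensed by the receptor Pdgfra, wear the proteoglycan Cspg4 (also called NG2) on their surface, and secrete the matrix proteoglycan versican (Vcan). Their identity rests on the basic helix-loop-helix factors Olig1 and Olig2 and on the HMG-box factor Sox10, which stay on in mature oligodendrocytes, whereas the G protein-coupled receptor Gpr17 marks the short-lived stage of cells that have committed to differentiate. Pdgfra is also made by meningeal fibroblasts and Cspg4 by pericytes. In bulk tissue, fewer cells of a type and less RNA in each cell cannot be told apart.

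Ube3a, the gene of the transgene, matched the labels in every library: it lay between 190 and 268 CPM (read counts scaled to library size with TMM factors) in WT PFC and between 663 and 2239 CPM in Ube3a2X PFC, and between 108 and 350 CPM against 726 and 1684 CPM in the hypothalamus. Totals were 36.9 to 69.1 M counted reads in the PFC and 39.0 to 380.8 M in the hypothalamus. RIN, the RNA integrity number, was lower in the PFC (6.7 to 8.9, median 7.6) than in the hypothalamus (6.8 to 9.3, median 8.95). The tissues matched their labels: Slc17a7, the glutamate transporter gene of cortical excitatory neurons, had 1484 to 2013 CPM in the PFC and at most 8.33 CPM in the hypothalamus, and Slc17a6, its subcortical relative, had at most 13.5 against 285 to 459 CPM. Several libraries stood apart. Hypothalamus WT female 471 was the shallowest of its tissue and had the most uneven coverage along transcripts there (median coefficient of variation 0.649, against a tissue median of 0.439). Hypothalamus Ube3a2X female 420 was the library of 380.8 M reads. PFC Ube3a2X female 468 was the shallowest of the PFC (36.9 M), with the highest coverage variation there (0.717, against a median of 0.475), the lowest 5′ to 3′ ratio (0.265), and the lowest AT dropout (10.6), and PFC Ube3a2X male 258 followed in coverage variation (0.631). Within the PFC, strand-correct reads had their median share at 99.1% in Ube3a2X males and at 93.1% to 93.9% in the other groups.

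All 7 genes were well measured. The smallest number of reads was 306 (Cspg4 and Sox10 in the PFC of Ube3a2X female 468), and each gene passed the filters on low counts and low variance in both tissues. Per kilobase of exon, the order of levels in the PFC was Olig1 (median 17.2 CPM per kilobase), Gpr17 (10.3), Pdgfra (6.72), Olig2 (5.28), Sox10 (4.81), Vcan (1.81), and Cspg4 (1.37). Olig1 exceeded Gpr17, Gpr17 exceeded Pdgfra, and Sox10 exceeded Vcan in all 20 libraries. Olig2 and Sox10 were not separated, since Olig2 was the higher in only 15 of 20. In the hypothalamus the order was Olig1 (24), Gpr17 (13.3), Pdgfra (9.36), Sox10 (7.24), Olig2 (6.80), Vcan (2.62), and Cspg4 (1.71), with Sox10 above Olig2 in 12 of 18 libraries. The members differ in composition as well as in level. Olig1, Olig2, and Sox10 have short exon models of 2162, 2530, and 3051 bases with GC contents of 61.1%, 58.5%, and 61.8%, whereas Pdgfra and Vcan span 10024 and 14462 exonic bases at 48.1% and 43.7% GC. Cspg4 is long (11931 bases) and GC-rich (59.2%), and Gpr17 is intermediate (5195 bases, 53.4%). The median over 12484 expressed genes was 4715 bases and 49.4% GC. Olig1 (GRCm38, chr16:91269772-91271933, plus strand) and Olig2 (chr16:91225457-91228677, plus strand) are neighbours, 41094 bases apart, and the other members lie on chromosomes of their own.

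**Figure D1:**
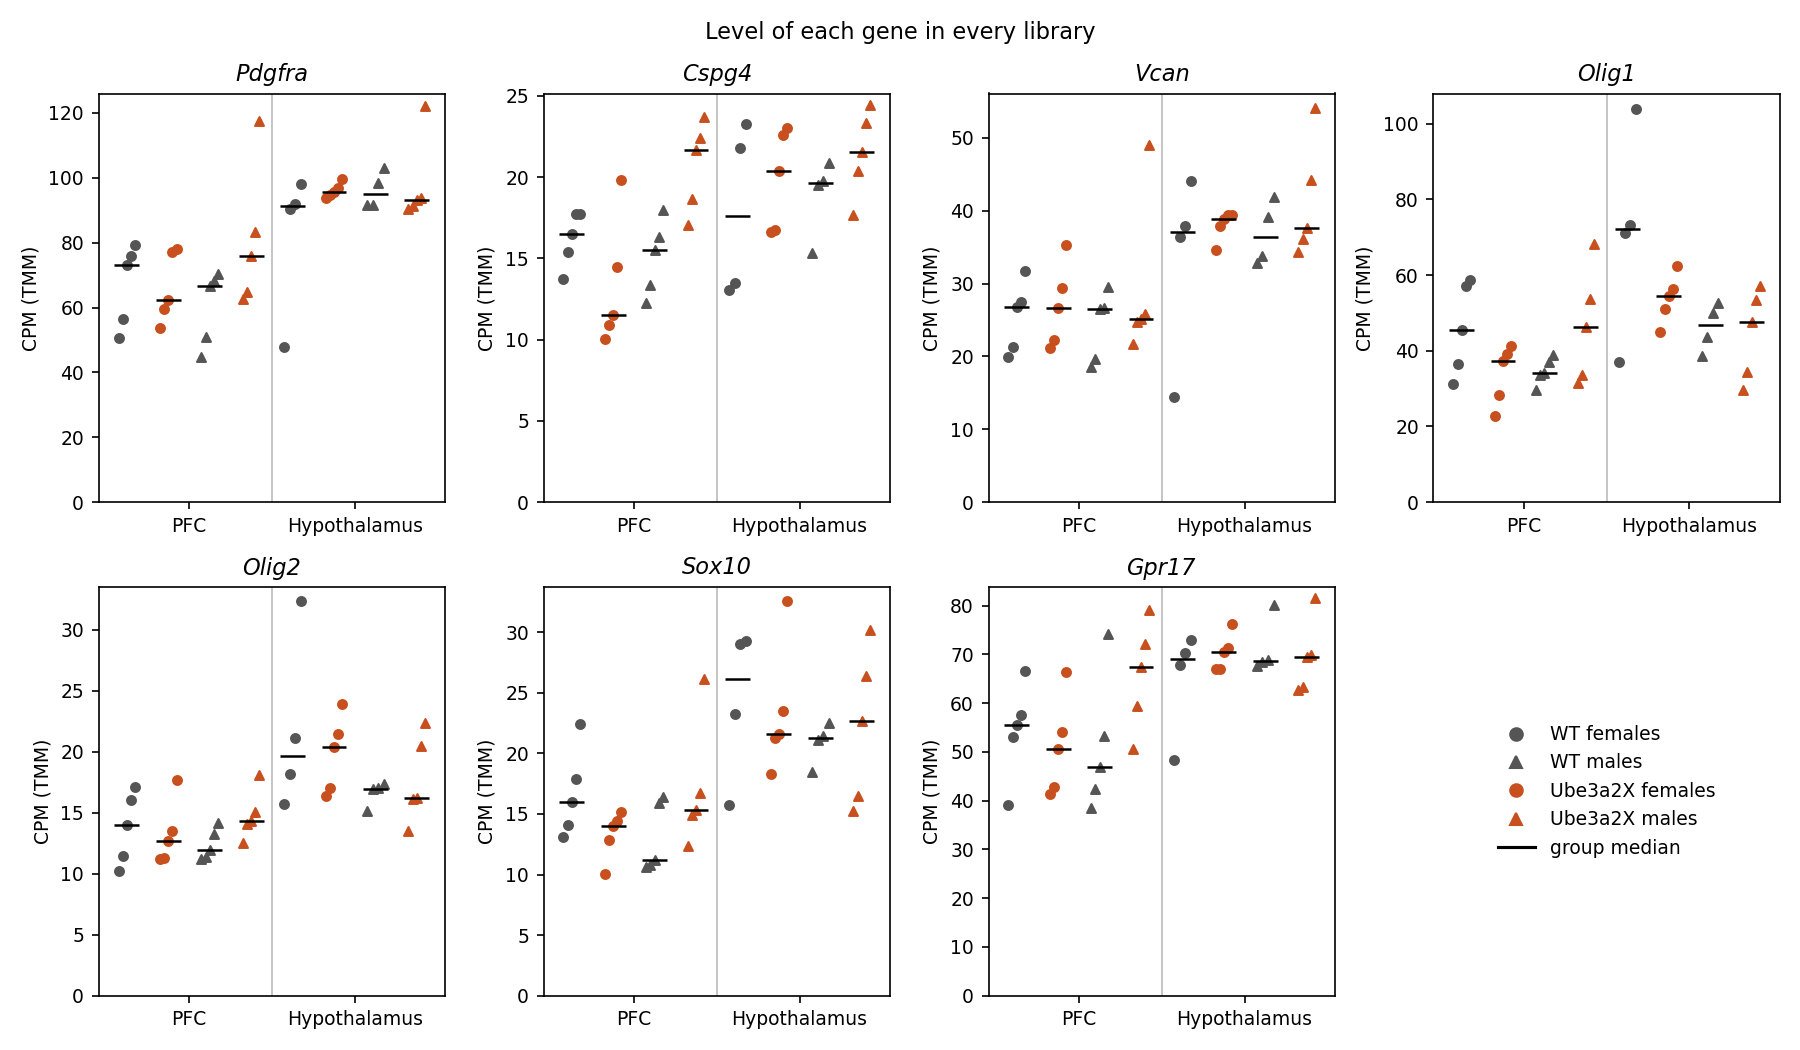
Level of each of the 7 genes (y axis, CPM after TMM scaling) in every library, with circles for females, triangles for males, grey for WT, orange for Ube3a2X, and a bar at the group median. PFC libraries are left of the line in each panel, and all 7 genes have a lower median in the PFC than in the hypothalamus, with ranges that overlap.

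Averaged over the sexes, the 7 genes were close to equal between genotypes in the PFC. Pdgfra ranged from 44.6 to 79.3 CPM (median 67.3) in WT and from 53.8 to 117.6 CPM (median 70.4) in Ube3a2X. Among the surface and matrix members, the fitted log2 difference (Ube3a2X minus WT) was 0.14 (SE 0.0813) for Pdgfra, 0.09 (SE 0.0985) for Cspg4, and 0.07 (SE 0.0774) for Vcan. Among the transcription factors it was −0.03 (SE 0.146) for Olig1, 0.12 (SE 0.111) for Olig2, and 0.06 (SE 0.121) for Sox10, and for Gpr17 it was 0.12 (SE 0.118). For every member the ranges of the genotypes overlapped. edgeR called 0 of 7 at an adjusted p under 0.05 and had 0 of 7 at an unadjusted p under 0.05, and DESeq2 and limma-voom also called 0. Over all 10900 genes tested, 0.0183% were called and 7.9% had an unadjusted p under 0.05. These values, from the contrast that chose the genes, are not support for or against a difference.

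The hypothalamus gave differences of the same small size. The log2 difference was −0.03 (SE 0.0351) for Pdgfra, 0.10 (SE 0.0637) for Cspg4, and −0.04 (SE 0.0459) for Vcan. It was −0.05 (SE 0.0530) for Olig1, 0.14 (SE 0.0764) for Olig2, 0.01 (SE 0.0698) for Sox10, and −0.04 (SE 0.0618) for Gpr17. Cspg4, Olig2, and Sox10 had positive values in both tissues and Olig1 had negative ones in both, while Pdgfra, Vcan, and Gpr17 were above 0 in the PFC and below it in the hypothalamus. The edgeR test called 0 of 7, with 0 of 7 at an unadjusted p under 0.05 and 0 called by DESeq2 or limma-voom, where 0.00843% of 11869 genes were called and 5.24% had an unadjusted p under 0.05. The WT female 471 had 47.9 CPM of Pdgfra and 14.4 CPM of Vcan. The other 17 hypothalamus libraries had at least 90.3 and 32.8 CPM. In the fit over both tissues, the genotype difference in the PFC minus that in the hypothalamus lay between −0.17 (Cspg4, SE 0.172) and 0.15 (Olig1, SE 0.238), again with 0 of 7 called by edgeR, DESeq2, or limma-voom and 0 at an unadjusted p under 0.05. Over 14219 genes 0% were called, with 8.66% at an unadjusted p under 0.05.

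The study asked whether extra Ube3a acts differently in males and females. Since the genotype difference of each sex may have been among the values that chose these genes, its values are given as a description. In the PFC, all 7 genes had a higher genotype difference in males than in females: in males every log2 value was positive, from 0.18 (Vcan) to 0.47 (Sox10), and in females every value was negative, from −0.47 (Olig1) to −0.01 (Olig2). The signs in females were not stable: 12 of 77 values under other settings and 26 of 140 with 1 library left out changed sign, against 3 of 77 and 0 of 140 in males. Without Ube3a2X female 468, Olig2 (0.07), Gpr17 (0.04), and Vcan (0.04) were positive in females. Olig1 had the largest fitted interaction of sex and genotype, the male minus the female difference (log2 0.88, SE 0.286), followed by Sox10 (0.82, SE 0.236), Cspg4 (0.64, SE 0.192), and Pdgfra (0.42, SE 0.159). Gpr17 (0.34, SE 0.229), Olig2 (0.26, SE 0.217), and Vcan (0.20, SE 0.151) had smaller values.

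The libraries behind these values overlapped between genotypes. For Cspg4, the proteoglycan, the WT males had 12.3, 13.3, 15.5, 16.3, and 18 CPM and the Ube3a2X males 17.1, 18.6, 21.6, 22.4, and 23.7 CPM. The WT females had 13.7, 15.4, 16.5, 17.7, and 17.8 CPM and the Ube3a2X females 10.1, 10.9, 11.5, 14.5, and 19.8 CPM. Thus 4 of 5 Ube3a2X males lay above every WT male, whereas 3 of 5 Ube3a2X females lay below every WT female. For Olig1 the males had 29.5, 33.7, 34.0, 37.2, and 38.9 CPM in WT and 31.5, 33.5, 46.2, 53.6, and 68.2 CPM in Ube3a2X. The females had 31.3, 36.4, 45.5, 57.0, and 58.6 CPM in WT and 22.7, 28.4, 37.2, 39.0, and 41.4 CPM in Ube3a2X. Here 3 of 5 Ube3a2X males exceeded all WT males, and all 5 Ube3a2X females lay below the WT female median of 45.5 CPM. Sox10 gave 10.7, 10.8, 11.2, 15.9, and 16.4 CPM in WT males against 12.3, 15, 15.4, 16.7, and 26.2 CPM in Ube3a2X males. In females it gave 13.1, 14.1, 16, 17.9, and 22.5 CPM in WT against 10.1, 12.9, 14.0, 14.4, and 15.1 CPM in Ube3a2X. Both ends of the Sox10 series came from single animals, Ube3a2X male 238 and Ube3a2X female 468. For Pdgfra, the growth factor receptor, the male values were 44.6, 51.0, 66.5, 68.1, and 70.4 CPM in WT and 62.8, 64.7, 76.0, 83.3, and 117.6 CPM in Ube3a2X. The female values were 50.6, 56.4, 73.3, 75.8, and 79.3 CPM in WT and 53.8, 59.4, 62.4, 77.1, and 77.9 CPM in Ube3a2X. The Pdgfra ranges of the females almost coincided. Vcan did not show the pattern of these 4 genes: the males had 18.5, 19.7, 26.6, 26.6, and 29.5 CPM in WT and 21.7, 24.7, 25.1, 25.9, and 49.0 CPM in Ube3a2X. Ube3a2X male 258 had the 49.0 CPM, and the other 4 Ube3a2X males lay below the WT male median. Without male 258 the fitted male value of Vcan was 0.08 (SE 0.115), and in females the ratio of the Vcan means (Ube3a2X to WT) was 1.06, above 1 where the fitted log2 value was −0.03.

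**Figure D2:**
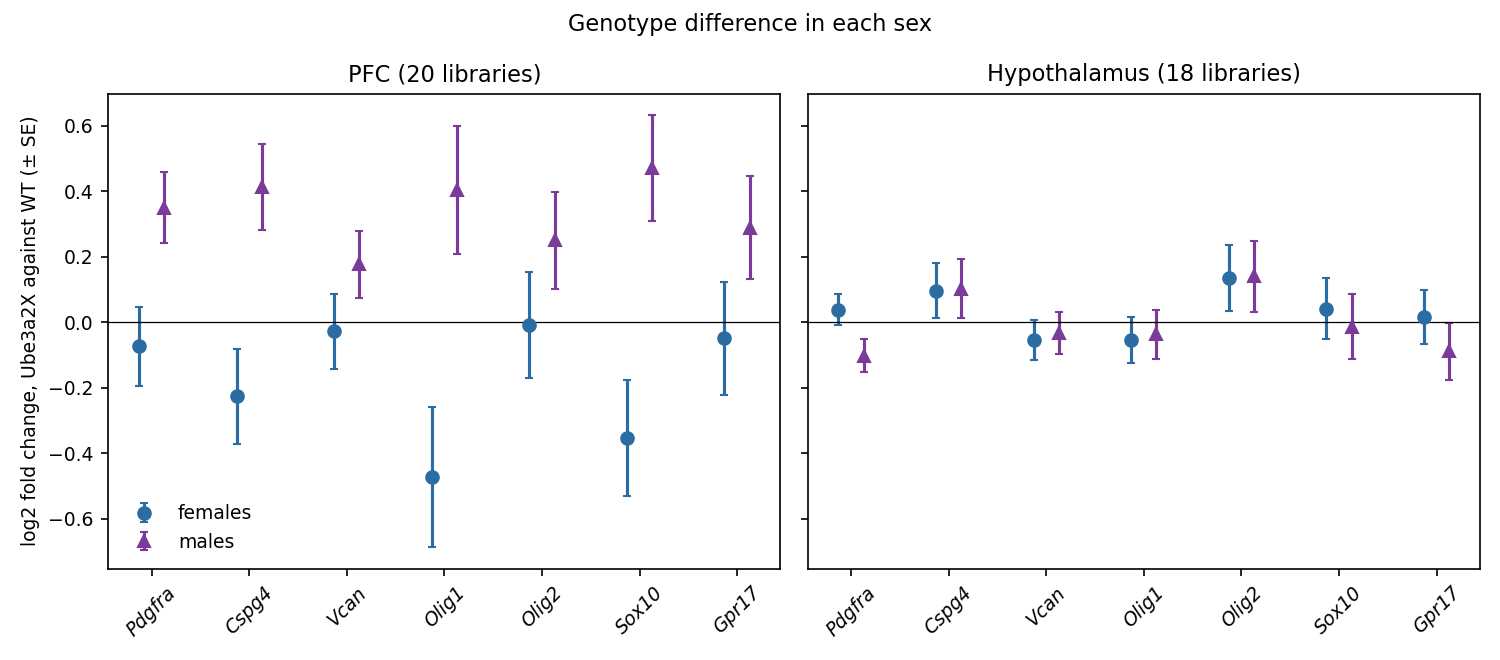
Fitted log2 difference of each gene between Ube3a2X and WT (y axis, ± SE) in females (circles) and males (triangles), for the PFC on the left and the hypothalamus on the right. In the PFC the males lie between 0.18 and 0.47 and the females between −0.47 and −0.01, while in the hypothalamus all values lie between −0.10 and 0.14.

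For the PFC interaction, edgeR called 0 of 7 members at an adjusted p under 0.05, limma-voom called 0, and DESeq2, which called 7.09% of all genes, called 2, Cspg4 and Sox10. At an unadjusted p under 0.05, edgeR had 4 (Pdgfra, Cspg4, Olig1, and Sox10, all positive). The background was high, since 25.2% of the 10900 genes tested had an unadjusted p under 0.05 (13.5% of all genes with a positive value), and 0% were called after adjustment. The median log2 value was 0.42 over the members and 0.00379 over all genes. Nothing is read from these counts and medians, nor from those of the other fits below, since they may come from the values that chose the genes. Without Ube3a2X female 462, without Ube3a2X male 253, or without WT female 93, edgeR called 3 of 7 (Cspg4, Olig1, and Sox10), and 9.57%, 9.56%, and 14.9% of all genes. Without Ube3a2X female 468, which had the lowest Cspg4, Olig1, and Sox10 of its group, the edgeR count at an unadjusted p under 0.05 was 4 and the median of the members was 0.31. Without WT female 397, whose Olig1, Olig2, Sox10, and Vcan were the highest of its group, none had an unadjusted p under 0.05 (5.65% of all genes did), and Olig2 turned to −0.19. With 3 surrogate variables in place of 2, the count at an unadjusted p under 0.05 was 0 and Olig2, Gpr17, and Vcan turned negative, and with the leading components of the quality measures instead it was 0 and Olig1, Olig2, and Sox10 turned negative.

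**Figure D3:**
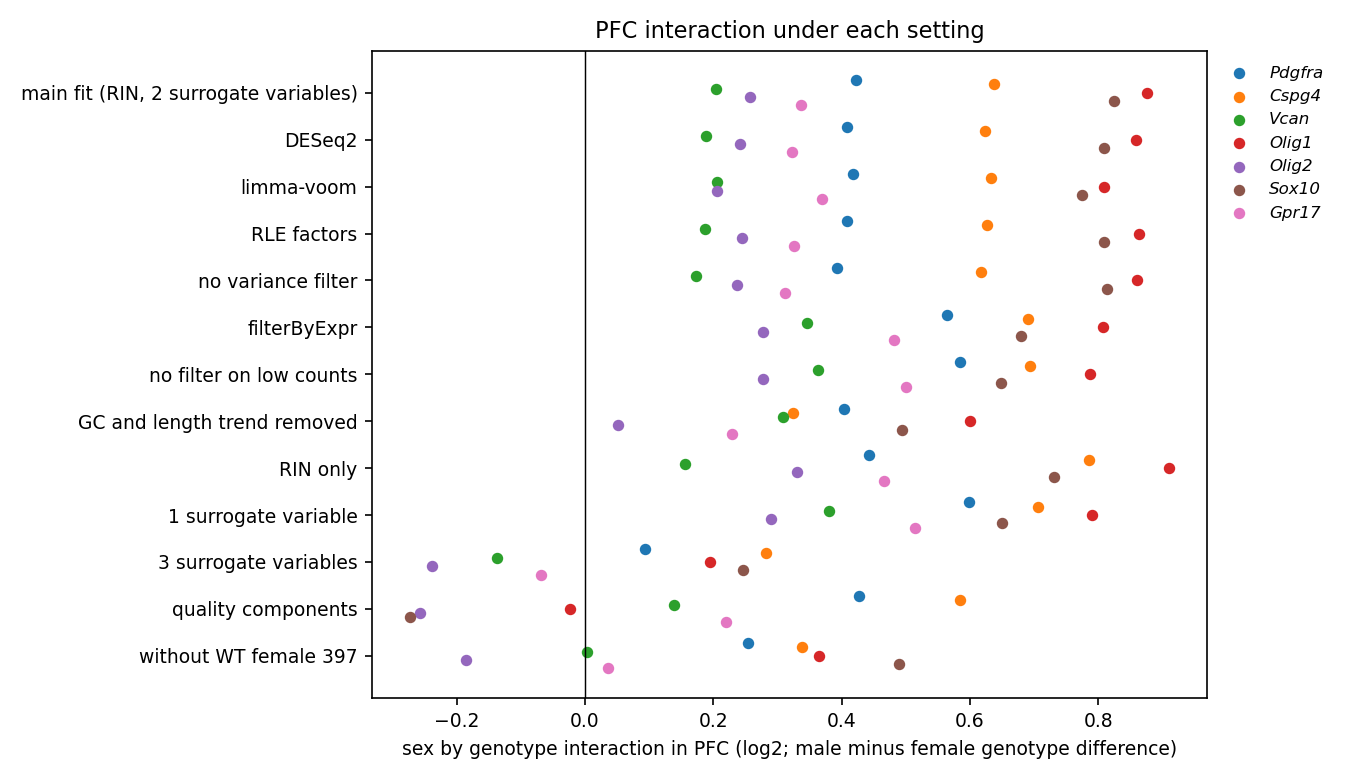
Interaction of sex and genotype in the PFC (x axis, log2, male minus female genotype difference) for each of the 7 genes (colours) under each way of processing the counts (rows). In the uppermost row all 7 values lie between 0.20 and 0.88, whereas with 3 surrogate variables and with the quality components 3 of the 7 lie below 0.

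The rest of the lineage also had mostly positive values in the PFC, and no gene passed the adjusted threshold. Of 14 further precursor genes, 12 were tested, 11 had a positive interaction, and 4 an unadjusted p under 0.05 (median log2 0.20, smallest adjusted p 0.118). Of 9 genes of newly formed oligodendrocytes, 7 were tested, with 4 at an unadjusted p under 0.05 on the positive and 1 on the negative side (median 0.40, smallest adjusted p 0.0958). All 12 genes of mature oligodendrocytes were positive (median 0.19), and none had an unadjusted p under 0.05 (smallest adjusted p 0.215). Markers of other glia and of vessels had positive values too: all 7 astrocyte genes (median 0.24), all 6 microglial genes (0.25), all 6 endothelial genes (0.33), and all 5 tested mural genes of 7 (0.31) were positive, while neuronal genes went both ways: 2 of the 6 tested excitatory genes (median −0.08) and 2 of the 6 inhibitory genes (−0.12) were positive. Those neuronal genes with an unadjusted p under 0.05 were positive, Camk2a (0.63, SE 0.143, adjusted p = 0.0958) and Slc32a1 (0.40, SE 0.177, adjusted p = 0.170), and they were chosen after their values were seen. The 4 tested fibroblast genes of 6 had a median of −0.02. Summed over 7 markers, mural RNA was 152 to 402 CPM in the PFC. AT dropout, the score for missing coverage of AT-rich sequence, had medians of 19.3 in WT and 17.5 in Ube3a2X females. In males the medians were 17.7 in WT and 20.1 in Ube3a2X. The score was highest in Ube3a2X male 238 (22.1), which had the highest Olig1 and Sox10 of the PFC. It was lowest in Ube3a2X female 468 (10.6), which had the lowest of both genes. Ube3a2X males 253 (15.2) and 258 (14.4) lay below every WT male (15.8 or more). With the trend of counts on GC content and length removed from each library, all 7 interactions stayed positive (median 0.32), and 3 had an unadjusted p under 0.05, as 13% of all genes did. The part of AT dropout, of these cells, and of the strand shares given above in the interaction of the members was not tested.

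In the hypothalamus, where the same limit holds, the interaction ranged from −0.14 (Pdgfra, SE 0.0656) to 0.02 (Vcan, SE 0.0862). The edgeR test called 0 of 7, as did DESeq2 and limma-voom. Pdgfra alone had an unadjusted p under 0.05, where 6.9% of all 11869 genes did and 0% were called. With 1 library left out at a time, Pdgfra missed this unadjusted threshold in 14 of 18 cases, that of WT female 471 among them (log2 −0.13, SE 0.0894).

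Sex itself made no difference that could be detected for the members in the PFC. The log2 differences (male minus female, averaged over genotype) lay between −0.07 (Vcan, SE 0.0788) and 0.15 (Cspg4, SE 0.103). edgeR called 0 of 7, with 0 at an unadjusted p under 0.05 and 0 called by DESeq2 and limma-voom, against 0.0917% of all genes called and 8.83% at an unadjusted p under 0.05. In the hypothalamus, Olig1 was called lower in males (log2 −0.20, SE 0.0519, adjusted p = 0.0479). Its 9 female libraries spanned 37.1 to 104 CPM (median 56.4) and its 9 male libraries 29.6 to 57.3 CPM (median 47.6), so that the sexes overlapped. The other 6 members were not called, with values from −0.09 (Olig2, SE 0.0737) to 0.09 (Cspg4, SE 0.0622); 2.3% of all genes were called, or 1.15% counting those lower in males (17.8% had an unadjusted p under 0.05). The call on Olig1 was marginal. It was absent with limma-voom (adjusted p = 0.0556), with RLE factors (0.0533), and in 14 of 18 cases with 1 library left out, that of WT female 471 with its 104 CPM among them (log2 −0.19, adjusted p = 0.0733), whereas DESeq2 kept it (0.0136). Sox8, a relative of Sox10 with a role in the same lineage, was also called lower in males (log2 −0.18, SE 0.0444, adjusted p = 0.0412). Pdgfc, a ligand of Pdgfra, was called higher in males (0.27, SE 0.0645, adjusted p = 0.0347), as was Acan, a lectican like Vcan (0.27, SE 0.0550, adjusted p = 0.0186). Among markers of other cells, Gfap (astrocytes, 0.51, SE 0.0946), Camk2a (excitatory neurons, 0.20, SE 0.0414), and Kl (choroid plexus, 0.36, SE 0.0737) were called higher in males. Pituitary and choroid plexus RNA was uneven between hypothalamus libraries, with the summed level of 5 markers between 41.1 and 4820 CPM, and its part in these differences was not tested.

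All 7 genes were lower in the PFC than in the hypothalamus. Sox10 ranged from 10.1 to 26.2 CPM (median 14.7) in the PFC and from 15.3 to 32.6 CPM (median 22.1) in the hypothalamus, the largest fitted difference (log2 −0.62, SE 0.164). Olig1 (log2 −0.56, SE 0.182) and Olig2 (−0.50, SE 0.136) followed, with medians of 37.2 against 51.9 CPM and 13.4 against 17.2 CPM. The receptor Pdgfra had medians of 67.3 and 93.8 CPM (log2 −0.43, SE 0.135), Cspg4 16.4 and 20.4 CPM (−0.44, SE 0.131), and Vcan 26.2 and 37.9 CPM (−0.41, SE 0.172). Gpr17, with 53.7 and 69.2 CPM, had the smallest fitted difference (−0.34, SE 0.124), while Cspg4 had the smallest median difference within mice (−0.26, against −0.46 for Gpr17). The ranges of the tissues overlapped for every member. For Pdgfra this rested on WT female 471 and Ube3a2X male 258: without the former, the hypothalamus began at 90.3 CPM, and 19 of the 20 PFC libraries reached no more than 83.3 CPM. All 7 passed an adjusted p under 0.05, where 68.4% of 14219 genes did and 35.6% were called lower in the PFC, and because the tissue difference was among the values that chose the genes, nothing is read from that count.

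Within animals the direction was the same for most pairs. Of the 13 mice with both tissues, Pdgfra, Vcan, Olig2, and Sox10 were lower in the PFC in 12, Olig1 and Gpr17 in 11, and Cspg4 in 9. The exceptions came from 5 of the 13 mice. Those of Cspg4 were small (log2 0.02 to 0.22, in mice 238, 262, 267, and 403), and Ube3a2X male 267 also had slightly more Olig1 (0.17) and Gpr17 (0.05) in its PFC. Ube3a2X male 238 had more Olig1 (log2 1.21), Sox10 (0.66), and Olig2 (0.42) in its PFC, whereas its Pdgfra (−0.92) and Vcan (−1.32) were far lower there, and Ube3a2X male 258 had more Pdgfra (0.38), Vcan (0.38), and Gpr17 (0.34) in its PFC. Taking the mouse as a fixed replicate block in these 13 animals, only Pdgfra was called (log2 −0.67, SE 0.254, adjusted p = 0.0473), so 1 of 7 in place of 7 of 7 (43.2% of all genes were called), and the other values lay between −0.81 (Olig1, SE 0.413) and −0.38 (Gpr17, SE 0.218). With the mouse as a random effect over all libraries, 7 of 7 were called. In WT libraries alone, 5 of 7 were called, without Cspg4 (adjusted p = 0.0570) and Gpr17 (adjusted p = 0.0650). The main fit called 68.4% of all genes, and nothing is read from these counts of members either. The tissues also differed in RNA input (500 ng for the PFC, 1000 ng for the hypothalamus), and in the purification kit, which cannot be told apart from the tissue. RIN also differed but overlapped between the tissues, and it was a term of the fit.

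**Figure D4:**
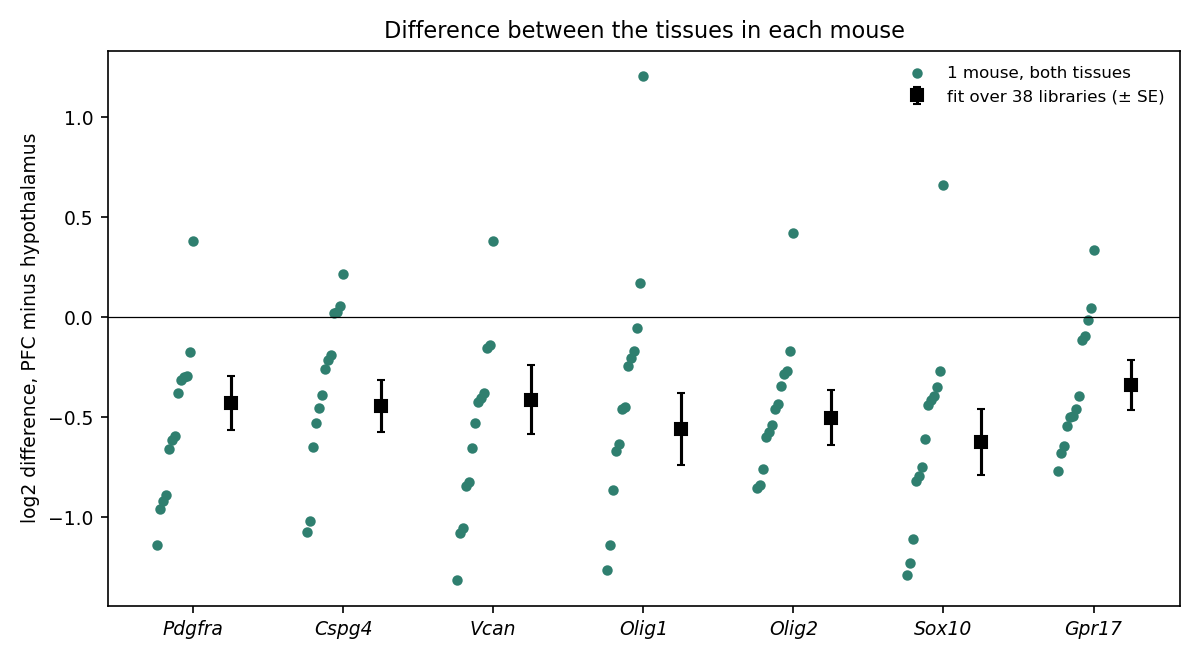
Log2 difference between PFC and hypothalamus (y axis) of each gene, with a point for each of the 13 mice that gave both tissues and a square for the fit over all 38 libraries (± SE). The squares lie between −0.62 and −0.34, and the points above 0 in Olig1 (1.21) and Sox10 (0.66) belong to the same mouse.

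All 12 mature oligodendrocyte genes were called lower in the PFC (median log2 −1.10), Cnp (−1.21, SE 0.141) and Ugt8a (−1.08, SE 0.145) among them, which serve the myelin membrane. These 12 values ran from −1.28 to −0.81, beside −0.62 to −0.34 in the members, which were chosen with their tissue difference known. Of the 14 other precursor genes, 8 were called lower in the PFC, led by Lhfpl3 (−1.74, SE 0.0722), Ednrb (−1.48, SE 0.117), and Nkx2-2 (−1.53, SE 0.145), and 2 were called higher, the matrix protein tenascin-R gene Tnr (0.51, SE 0.134) and Xylt1 (0.44, SE 0.117). Of the 8 tested genes of newly formed oligodendrocytes, 6 were lower, led by Tcf7l2 (−1.64, SE 0.131), Myrf (−1.24, SE 0.175), and Enpp6 (−0.67, SE 0.127), and Rras2 (1.2, SE 0.106) and Fyn (0.38, SE 0.0564) were higher. Several of these genes, Tcf7l2 and Fyn among them, are also made by neurons.

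Over all genes, 32.8% were called higher and 35.6% lower in the PFC, and the partners of the members were called in both directions as well. Of the genes of platelet-derived growth factors and their second receptor, Pdgfb (log2 1.29, SE 0.153) and Pdgfc (0.41, SE 0.101) were called higher and Pdgfd (−0.93, SE 0.152) lower in the PFC, out of 5. Of 8 lecticans and matrix partners of versican, 4 were higher, led by Hapln1 (2.68, SE 0.122), Ncan (1.39, SE 0.0762), and Hapln4 (0.94, SE 0.0911), and 4 were lower, led by Acan (−1.02, SE 0.156), Hapln2 (−1.32, SE 0.207), and Bcan (−0.43, SE 0.126). Of 8 genes of the Notch and BMP pathways and other brakes on differentiation, 3 were higher, namely Lingo1 (2.56, SE 0.132), Id2 (1.48, SE 0.0954), and Hes1 (0.44, SE 0.112), and 4 were lower, led by the Notch ligand gene Dll1 (−1.28, SE 0.104), Id4 (−0.50, SE 0.125), and the receptor gene Notch1 (−0.49, SE 0.142). Cells that share markers with precursors gave other values: mural markers were called higher in the PFC in 2 of 6 tested and lower in none, while fibroblast markers were lower in 2 of 6 (Dcn −1.55, SE 0.247, and Lum −0.89, SE 0.246) and higher in 1 (Slc6a13, 0.82, SE 0.275). Microglial markers were higher in 4 of 6 and endothelial ones in 4 of 6, with none lower, whereas astrocyte markers were lower in 4 of 7, led by Gfap (−3.08, SE 0.236), and higher in 1 (Slc1a2, 1.33, SE 0.143).

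Across libraries the members did not all rise and fall with Pdgfra. After the mean of each group of sex and genotype was taken out, Vcan followed Pdgfra closely in the PFC (r = 0.91, rho = 0.85, permutation p = 1e-05 for both, the smallest that 100000 permutations can give; adjusted p = 6e-05 over 12 relations for r and 0.00012 for rho), and r was 0.87 without the 2 libraries farthest from the median of Pdgfra. Gpr17 followed it less closely (r = 0.60, rho = 0.57, adjusted permutation p = 0.0149 for r and 0.0411 for rho, r = 0.59 without the 2 farthest). The unadjusted permutation p for Gpr17 was 0.00498 for r and 0.0103 for rho. Cspg4 (r = 0.31), Olig2 (r = 0.36), Olig1 (r = 0.01), and Sox10 (r = −0.16) were not related to Pdgfra beyond the threshold, with rho of 0.30, 0.39, 0.08, and −0.12, permutation p for r of 0.188, 0.114, 0.980, and 0.497, and adjusted p of 0.251, 0.171, 0.980, and 0.596. Over all 21 pairs of members in the PFC, the median r was 0.35, and the range was −0.17 to 0.91.

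In the hypothalamus, Vcan again tracked Pdgfra (r = 0.96, rho = 0.79, permutation p = 1e-05 for r, adjusted 6e-05, and 0.00017 for rho, adjusted 0.00102; r = 0.86 without the 2 farthest libraries). Olig2 ran the opposite way (r = −0.75, rho = −0.57, permutation p = 0.0003 and 0.0145, adjusted 0.0012 and 0.0434), as did Olig1 by r (r = −0.62, adjusted permutation p = 0.0230) but not by rho (−0.42, adjusted permutation p = 0.182). These relations rested in part on single libraries: without the 2 farthest from the median of Pdgfra, WT females 471 and 262, r was −0.49 for Olig2 and −0.31 for Olig1. The relation of Gpr17 (r = 0.65, rho = 0.29, adjusted permutation p = 0.0230 for r and 0.349 for rho) rested on them wholly, with r = 0.07 when they were left out and −0.25 without WT female 471 alone. Cspg4 (r = 0.40, rho = 0.28) and Sox10 (r = −0.12, rho = −0.16) had adjusted permutation p-values for r of 0.159 and 0.691. Over all 21 pairs, the median r in the hypothalamus was 0.19, and the range was −0.78 to 0.96, with 12 pairs positive. The transcription factors Olig1, Olig2, and Sox10 had positive r with each other in both tissues, 0.59 to 0.77 over the 20 PFC libraries and 0.59 to 0.87 over the 18 hypothalamus libraries. In WT female 471, Pdgfra (47.9 CPM), Vcan (14.4), Cspg4 (13.1), and Gpr17 (48.2) were the lowest of the 18 libraries, while Olig1 (104 CPM) and Olig2 (32.4 CPM) were the highest.

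**Figure D5:**
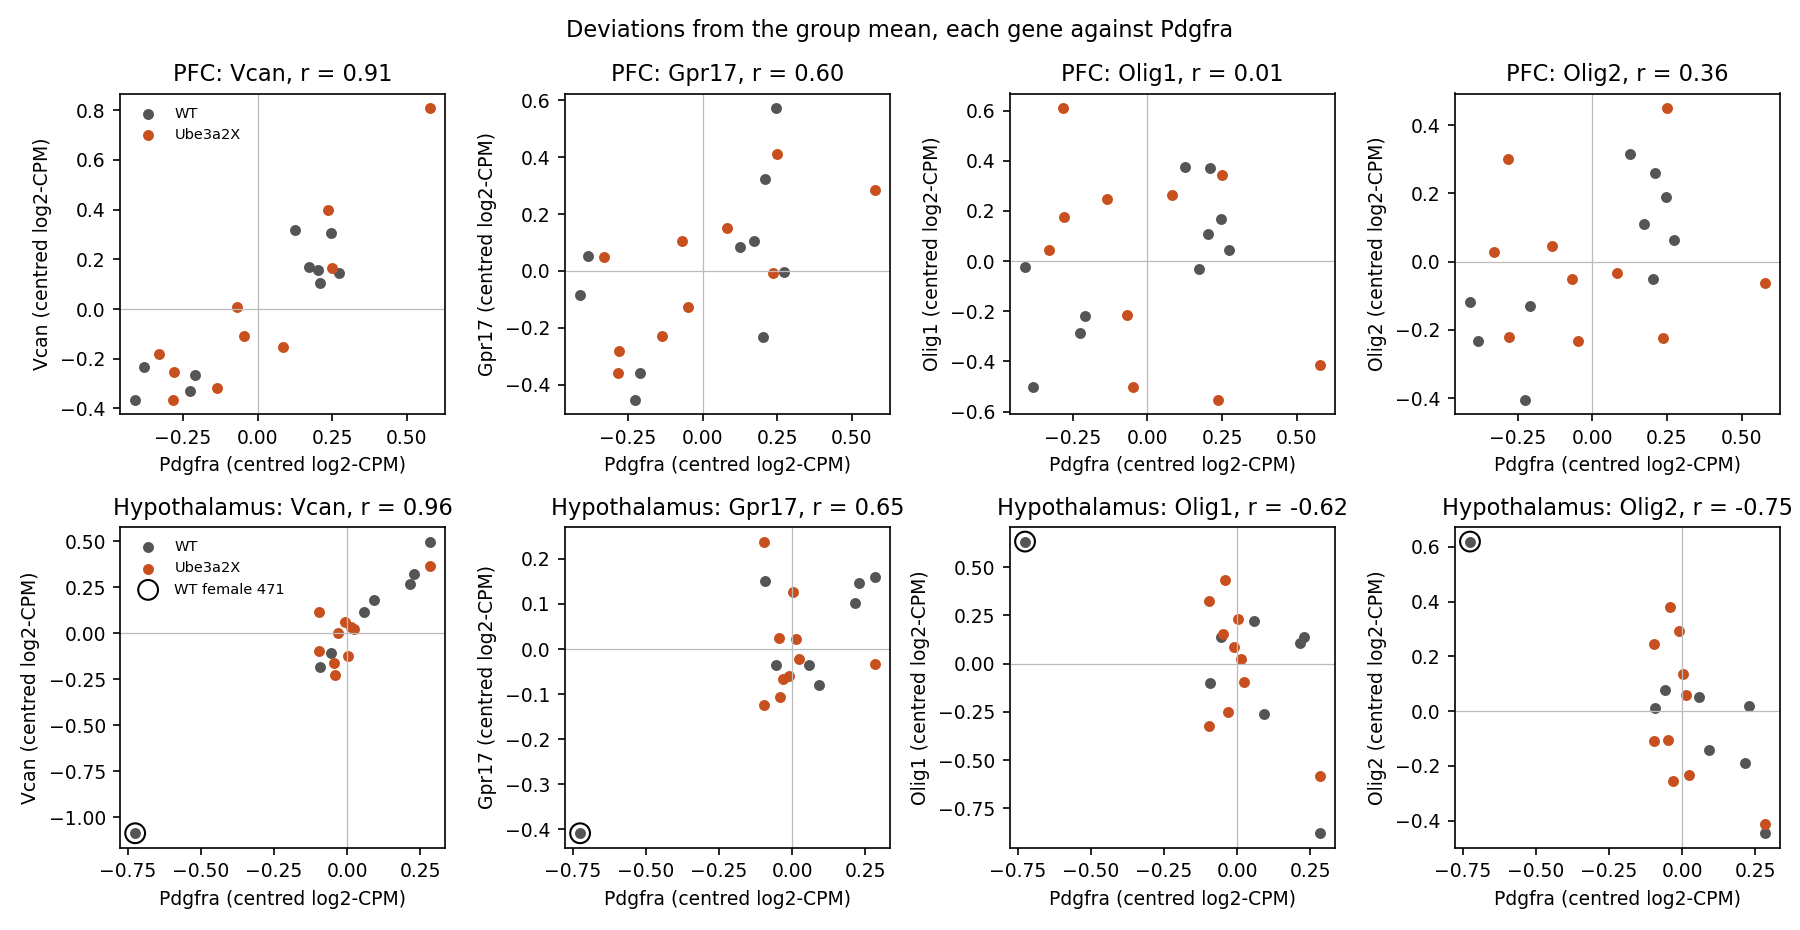
Deviation of Vcan, Gpr17, Olig1, and Olig2 from the mean of their group (y axes, log2-CPM) against that of Pdgfra (x axes), with a point for each library of the PFC (upper row) and hypothalamus (lower row), grey for WT and orange for Ube3a2X. Vcan lies along a rising line in both tissues (r = 0.91 and 0.96), and the circled WT female 471 stands apart in the hypothalamus.

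These relations must be read against those of all genes, because many genes moved with Pdgfra. Of 9377 other genes tested in both tissues, the quartiles of r were −0.39 and 0.36 in the PFC and −0.72 and 0.79 in the hypothalamus, or −0.45 and 0.35 there without WT female 471. Ranked by the smaller of the r of the tissues, Vcan was 15th of the 9377, Gpr17 629th, Cspg4 1824th, Sox10 3913th, Olig1 6243rd, and Olig2 7198th. The 5 genes most like Pdgfra were Ptprz1 (r = 0.95 in the PFC and 0.97 in the hypothalamus), Itpr2 (0.93 and 0.96), Gm49368 (0.93 and 0.96), Abca1 (0.93 and 0.95), and Entpd1 (0.93 and 0.93), over 20 and 18 libraries. Ptprz1 and Itpr2 were on the lists of precursor and newly formed oligodendrocyte genes, and the others were on no list of the lineage. In the hypothalamus these lists went both ways. Of the 10 other precursor genes ranked, Ptprz1 included, 6 had a positive r with Pdgfra and 4 a negative one (lowest −0.83, Cacng4). Of the 7 newly formed oligodendrocyte genes, Itpr2 included, 3 were positive and 4 negative (lowest −0.79, Rras2). These hypothalamus values include WT female 471. In the PFC, Matn4 alone of these precursor genes was negative (−0.16), and Cacng4 had 0.81. Of the newly formed oligodendrocyte genes, Myrf (−0.31) and Sirt2 (−0.27) were negative there, and Rras2 had 0.08. The exon models of the 5 genes most like Pdgfra measured 4803 to 14802 bases at 44.5% to 50.8% GC, against 48.1% for Pdgfra. The median of expressed genes was 49.4%. The members that ranked lowest, Olig1, Olig2, and Sox10, have 58.5% to 61.8%. Cspg4 has 59.2%, with r of 0.31 in the PFC and 0.40 in the hypothalamus. The part of base composition and length in these relations was not tested.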

How the data were processed

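Reads of stranded mRNA libraries had been aligned with STAR to GRCm38 (mm10) and counted with featureCounts on Gencode genes by the authors, who deposited raw counts per gene without a filter. Quality measures were deposited for each library: RIN and AT dropout as scores, the shares of bases and of reads on the expected strand as fractions, coverage variation and end bias as ratios, and aligned reads as counts. The RIN score, these fractions (as percent), and ratios were used as the authors gave them. No column of samples outside the series was found (0).

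The members and the gene lists were chosen with earlier results of these data known. In R 4.3.3, a gene was dropped from a tissue if at least 2 of its libraries held under 100 counts, and the 15% of lowest variance followed; 10900 (PFC) and 11869 (hypothalamus) genes remained. edgeR 4.0.16 (TMM, estimateDisp, glmQLFit with robust estimation, glmQLFTest) was fitted with the 4 sex-by-genotype groups, 2 surrogate variables (sva 3.50.0), and RIN as terms. The tissues were compared on 14219 genes in 38 libraries with 8 groups and RIN. Benjamini-Hochberg adjustment ran across every gene tested, with 0.05 as the threshold. The same mouse gave both tissues in 13 cases, which pairs those libraries by animal; the correlation of their deviations from the group means over 12569 genes was −0.55 to 0.41 (median −0.06), over 0.1 in 3 of 13 pairs. Correlations used log2-CPM (prior count 2) centred on the groups. CPM per kilobase used exon lengths of GENCODE vM21. Named were all members, per comparison and list up to 3 called genes in each direction with the smallest p, and the 5 genes most like Pdgfra. A gene that this rule would name is not reported here. Alternatives used DESeq2 1.42.0, limma 3.58.1, RLE factors, other filters, other surrogate variables, a GC and length offset, and fits with 1 library left out. The fits were tested on simulated counts. Figures used matplotlib. Intervals of counting error were not computed.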

Additional observations from a re-analysis of the deposited data

Results flagged for a closer look

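Of 56 sets of values (7 genes in 8 groups), 4 held a library far from the others by Dixon's test; chance marks about 1 set in 20. In the hypothalamus, Pdgfra was 47.9 CPM in WT female 471, with the next at 90.5 CPM, and 122 CPM in Ube3a2X male 238, with the next at 93.8 CPM. Gpr17 was 80.2 CPM in hypothalamus WT male 403, with the next at 68.8 CPM. In the PFC, Vcan was 49.0 CPM in Ube3a2X male 258, with the next at 25.9 CPM. These libraries were kept.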

How the results depend on the processing

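The counts of members called kept to 0 for the genotype difference in both tissues, for its difference between the tissues, for the interaction in the hypothalamus, and for sex in the PFC under every alternative run, including each fit without 1 library (0 to 0). The PFC interaction went from 0 of 7 to 2 with DESeq2, and to between 0 and 3 without 1 library. The call of 1 member by sex in the hypothalamus (Olig1) was 0 with limma-voom, RLE factors, RIN only, 1 surrogate variable, the quality components, filterByExpr, no variance filter, and no filter on low counts, and between 0 and 1 without 1 library; the cause was not tested. The tissue difference was called for 1 of 7 with the mouse as a replicate block, on 26 libraries in place of 38, and for 6 to 7 without 1 library; the block changed no call of the genotype difference between the tissues. The member lost was Vcan, without hypothalamus WT male 423 (adjusted p = 0.115) or without PFC Ube3a2X female 417 (0.0752), WT male 251 (0.0803), or WT male 256 (0.0535). The relations with Pdgfra past the threshold numbered 6, or 3 to 7 without 1 library, and that of Gpr17 in the hypothalamus went from 0.65 to −0.25 without WT female 471, with a range of −0.25 to 0.79 over the libraries left out. Over 9377 genes the quartiles of r with Pdgfra were −0.72 and 0.79 in the hypothalamus. Values of the size of Olig1 (−0.62) and Gpr17 (0.65) were thus common there and are not particular to the members. Of the uncalled log2 values of members, 6 of 77 changed sign under another setting for the PFC interaction, 17 of 77 for that of the hypothalamus, 14 of 77 for sex in the PFC, 4 of 77 for sex in the hypothalamus, 5 of 77 for genotype in the PFC, and 10 of 77 for genotype in the hypothalamus. Group means in log2-CPM moved by more than the spread of the group in 7 of 112 cases with another prior count or plain library sizes. Every member had at least 306 reads in every library, and calls were not tested against depth.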

Other observations

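In the hypothalamus, the mature oligodendrocyte genes stood higher in Ube3a2X than in WT in the fitted values of all 12 (median log2 0.20, range 0.13 to 0.27), and 9 of the 12 had an unadjusted p under 0.05, where 1.86% of all genes were higher at that threshold. The smallest adjusted p was 0.886, so that edgeR called none of them. In females alone, only Cldn11 and Ugt8a among them had an unadjusted p under 0.05, where 1.36% of all genes were higher at that threshold. Nothing is read from these counts. The gene lists were chosen with earlier results of these data known, and the 12 genes belong to 1 cell type. The summed level of the 12 genes was 3410 to 5811 CPM in WT and 4232 to 5087 CPM in Ube3a2X, and these ranges overlapped. Values for markers of other cells stood below 0 alongside: 5 of 6 inhibitory neuronal genes were negative (median log2 −0.26, 3 with an unadjusted p under 0.05), as were all 6 fibroblast genes (median −0.22, 2 with an unadjusted p under 0.05), where 3.38% of all genes were lower at that threshold, and none was called (smallest adjusted p 0.886). Their part in the values of the mature oligodendrocyte genes was not tested. In the PFC the same 12 genes also had positive values throughout (median log2 0.17), with 1 at an unadjusted p under 0.05 and a smallest adjusted p of 0.506.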
